A study of Drosophila melanogaster with 2 samples.

Results

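The nuclear tRNA genes of Drosophila melanogaster were examined in a map of gem, a transcription factor of the CP2 branch of the CP2 and Grainyhead family. They were all genes of the tRNA biotype on the chromosome arms of the peak lists, 290 of 18164 annotated genes once transposable elements were set aside. Membership did not depend on any measured value, but the family was chosen with earlier results of these data known. Of these genes, 33 had the transcription start site (TSS) of a protein-coding gene within 500 bp and 257 did not. A gene was counted as having a peak when the peak's summit lay inside it or within 500 bp of either end.

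The map came from chromatin immunoprecipitation followed by sequencing with an antibody against GFP. The material was whole embryos aged 0 to 24 h, both sexes pooled, of a transgenic line with stable expression of gem carrying GFP at its C-terminus. There was 1 group, with biological replicates numbered 1 and 4 in the labels and no second genotype, stage or treatment. Whole embryos mix all tissues and stages, so a signal cannot be assigned to a cell type, and the fusion protein stands in for untagged gem. The replicate 1, replicate 4 and pooled lists held 30000 peaks each, and the list filtered on reproducibility between replicates (irreproducible discovery rate, IDR) held 11045, which were the 11045 strongest pooled peaks. Signal is a value that the authors' peak caller attached to each peak, on a scale that is not stated, and it was used only to rank and describe peaks within a list. With 1 group there was no test to make. Intervals of shares are 95% exact Clopper-Pearson ones and take in counting error alone, and neighbouring genes that share a peak are not independent.

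tRNA genes are transcribed by RNA polymerase III (Pol III), not by the polymerase that makes mRNA. Their promoter lies inside the gene: the factor TFIIIC binds an A box and a B box within the transcribed sequence and brings in TFIIIB, which seats the polymerase just upstream of the start. In flies, as in other animals, many tRNA genes are identical copies scattered singly or in tandem clusters, often inside introns of protein-coding genes.

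The copies of tRNA-Val with anticodon CAC show why position had to be told apart from gene sequence, and they are printed here for that reason. The 6 Val-CAC-2 genes have one and the same sequence, with the B box core GTTCGANNC at base 53 in capitals. It is shown from Val-CAC-2-5 at chr3R:19672277-19672349, minus strand, in the RefSeq sequence of release 6:
Val-CAC-2-5 gene: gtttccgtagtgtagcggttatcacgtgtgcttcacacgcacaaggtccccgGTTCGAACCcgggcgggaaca
The 4 strongest peaks near tRNA genes on arms 3R and X had the summit windows below, 101 bp centred on the summit and read on the strand of the tRNA gene. They are shown because none of them held a B box core, an A box core or a CP2 site. Of the 13 motifs searched on both strands, these 4 windows held 1, a GAGAG repeat in the Leu-TAA-2-1 window, marked by capitals. Their coordinates are chr3R:8669319-8669419, chrX:3427697-3427797, chr3R:24112720-24112820 and chr3R:19671832-19671932, in the order of the lines.
Tyr-GTA-1-8 summit: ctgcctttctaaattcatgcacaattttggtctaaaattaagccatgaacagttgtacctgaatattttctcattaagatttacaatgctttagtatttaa
Gln-TTG-2-1 summit: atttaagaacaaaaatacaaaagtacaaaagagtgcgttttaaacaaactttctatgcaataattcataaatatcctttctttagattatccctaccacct
Leu-TAA-2-1 summit: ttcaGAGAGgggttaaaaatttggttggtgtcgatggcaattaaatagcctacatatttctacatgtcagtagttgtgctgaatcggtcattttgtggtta
Val-CAC-2-5 summit: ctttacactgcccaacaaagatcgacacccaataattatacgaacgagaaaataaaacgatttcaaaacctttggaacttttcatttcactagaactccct

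gem summits lay near tRNA genes more often than near positions of the arms at large, and most of that difference came from peaks of middling and low rank. In the IDR list, 54 of 290 tRNA genes had a summit within 500 bp, a share of 18.6% (95% interval 14.3 to 23.6), where 8.29% of all possible 73-bp intervals on the arms had one (73 bp being the median tRNA gene length). In the pooled list of 30000 peaks the count was 177 of 290 genes, 61.0% (55.2 to 66.7), against 19.9% of intervals. These intervals cover the whole arms, and densities nearer to tRNA genes are given further on. The pooled list reaches down to uncertain calls, which have a low −log10 q-value. For peaks near tRNA genes the deposited value was 1.31 at rank 16463 and 0.266 at rank 29839. The shares at low ranks are therefore shares of listed peaks and not of secure sites. Replicate 1 alone gave 175 genes (60.3%) against a background of 20% and replicate 4 alone gave 182 genes (62.8%) against 19.6%. The replicates named largely overlapping sets: 158 genes had a summit in both, which was 90.3% of the genes of replicate 1 and 86.8% of those of replicate 4. Any summit within 500 bp counted here, not only a matched peak. The same overlap was not counted for other genes or for intervals. A further 17 genes had one in replicate 1 only and 24 in replicate 4 only. Across the 158 genes the highest signals of the replicates had a Spearman correlation of 0.802, given as a description since clustered genes share peaks. There were 90 genes with no summit in any of the 4 lists.

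The strongest gem sites lay near tRNA genes about as often as elsewhere on the arms. Among the 5000 strongest pooled peaks, 13 tRNA genes (4.48%) had a summit within 500 bp, and 3.88% of intervals did. With the 5000 strongest of replicate 1 the shares were 3.1% of tRNA genes and 3.89% of intervals, and with those of replicate 4 they were 4.83% and 3.84%. With 15000 pooled peaks the tRNA share was 32.8% against 11.0% of intervals, and with 20000 it was 50.7% against 14.2%, 3.57 times the background. Both replicates had this shape, with 45.5% of tRNA genes in replicate 1 and 50.3% in replicate 4 at 20000 peaks, against 14.2% and 13.9% of intervals.

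**Figure D1:**
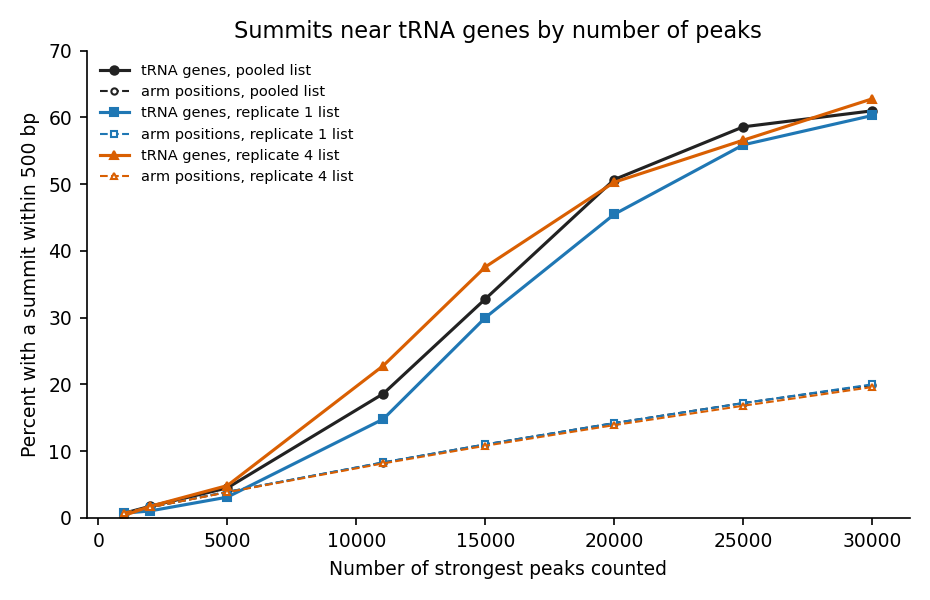
Share of the 290 tRNA genes (solid lines) and of all 73-bp intervals on the arms (dashed lines) with a summit within 500 bp, in percent, by the number of strongest peaks counted in the pooled, replicate 1 and replicate 4 lists. The solid and dashed lines lie together up to 5000 peaks and part after that, to 61.0% of tRNA genes and 19.9% of intervals at 30000 pooled peaks.

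Taken peak by peak, the same pattern appeared as a band of ranks. Bases within 500 bp of a tRNA gene made up 0.174% of the arms. Of pooled peaks ranked 1 to 1000, 0.2% had their summit there, and of those ranked 1001 to 5000, 0.225%. The share was 0.48% at ranks 5001 to 11045, 0.771% at ranks 11046 to 20000 and 0.51% at ranks 20001 to 30000. The band with the highest share lay outside the IDR list. Of its 69 tRNA peaks, 46 (66.7%) had a match within 100 bp in both replicates, against 72.8% of all peaks of those ranks. In the lowest band the shares matched were 23.5% of tRNA peaks and 21.4% of all peaks. These differences were not tested. Some weak pooled peaks overlap a neighbour, such as those with summits at chr2R:14984265 and chr2R:14984465 beside Leu-AAG-1-1. Each was counted here and in the distances and densities below, and whether they are separate sites was not tested.

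Weak and strong peaks also differed in where the summit lay. In the pooled list, 0 of the 11 tRNA peaks ranked 1 to 5000 had their summit within 100 bp of the nearest tRNA gene, a count that allows a share of up to 27.3% (limits at a count of 0 are 3 counts of the total, not Clopper-Pearson bounds). At ranks 5001 to 11045, 8 of 29 did. At ranks 11046 to 20000 it was 42 of 69 (60.9%), with a median distance of 83 bp, and at ranks 20001 to 30000 it was 30 of 51 (58.8%). Of all bases within 500 bp of a tRNA gene, 33.4% lie within 100 bp. Clusters leave little room for distant summits, so the peaks with a single tRNA gene nearby were read apart. That choice in turn drops close summits within clusters: all 8 IDR summits within 100 bp had several tRNA genes in reach. The share of bases within 100 bp was not counted for single genes. Of the peaks with 1 tRNA gene nearby, 0 of 27 in the IDR list had a summit within 100 bp (up to 11.1% allowed). The counts were 1 of 23 and 2 of 30 among the 11045 strongest peaks of replicates 1 and 4. At pooled ranks 11046 to 20000 it was 15 of 30, and at ranks 20001 to 30000 it was 16 of 29. The replicates taken singly gave 57.4% in replicate 1 and 60% in replicate 4 within 100 bp at ranks 11046 to 20000, and 0 of 8 and 0 of 11 at ranks 1 to 5000.

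**Figure D2:**
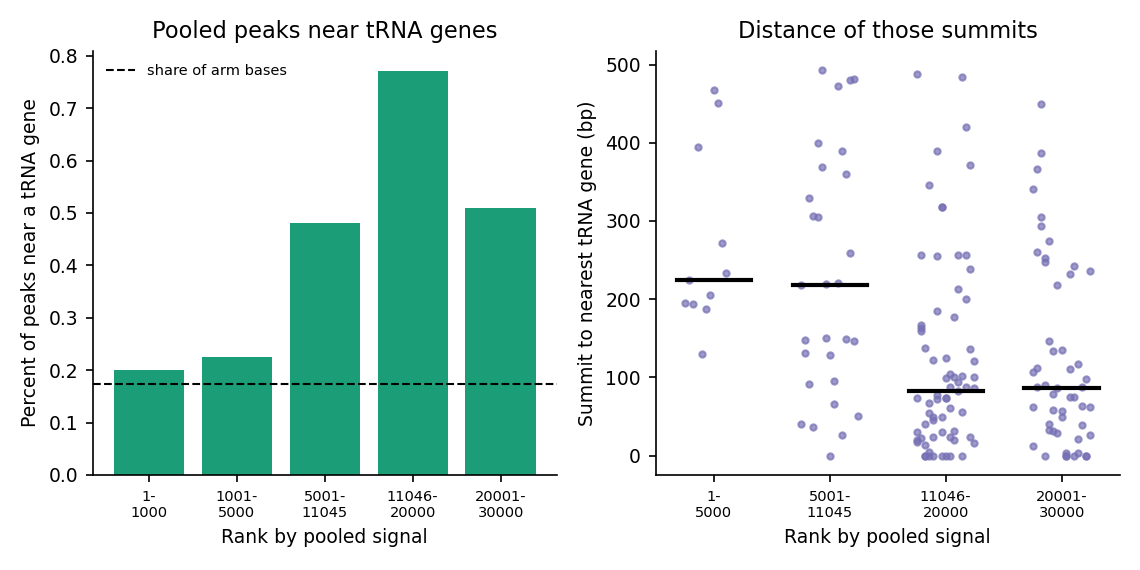
Left, percent of pooled peaks with a summit within 500 bp of a tRNA gene, by rank, with the share of arm bases that lie there (0.174%) as a dashed line. Right, distance in bp from each of those summits to the nearest tRNA gene, one point per peak, with the median as a bar: 224 bp at ranks 1 to 5000 and 83 bp at ranks 11046 to 20000.

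tRNA genes are repeated sequence, and how the authors treated reads that map to several places is not given in the sources used here. The 290 genes had 95 distinct sequences, 238 genes had an identical copy elsewhere, and the same number held no 31-base stretch that occurs once in the arms. In windows of the gene with 500 bp to either side, the median share of unique 31-base stretches was 92.3%, and the lowest was 27.5%. In the genes alone the median was 0%. Of stretches sampled across the arms, 87.51% were unique. That is a share of stretches and not a median of windows, so it is no background for the 92.3%. Where the window was under 90% unique, 58 of 78 genes (74.4%) had a pooled summit and 11 (14.1%) an IDR summit. Where it was at least 90% unique, 119 of 212 genes (56.1%) had a pooled summit and 43 (20.3%) an IDR summit. Both pooled shares were above the 19.9% of intervals. Read mappability inside the genes was not tested.

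The IDR list held 40 distinct peaks within 500 bp of tRNA genes, mostly in its weaker part. Their signal ran from 189 to 4569.1 with a median of 264, against 432 for the whole list, and 11 of them were among the 5522 strongest of the list. Listed intervals can overlap, and each still counts as a peak. The peaks of 497 and 253 beside Ile-AAT-1-8 overlap, as do those of 373 and 277 beside Glu-TTC-1-5. Of the 40, 13 peaks lay within reach of several tRNA genes, up to 4. The summit was upstream of the nearest tRNA gene in 20, inside it in 1 and downstream in 19, so the upstream share was 50% (33.8 to 66.2). The median distance was 218 bp. A protein-coding TSS lay within 500 bp of 10 of these summits, and in 4 (10%, 2.79 to 23.7) it was nearer than the tRNA gene. Replicate 1 and replicate 4 both matched 38 of the 40 peaks. Across those 38, signal ran from 94.4 to 3333.8 in replicate 1 with a median of 176, and from 33.1 to 1250.6 in replicate 4 with a median of 93.2. Their Spearman correlation was 0.56, and Pearson's r of the log10 signals was 0.812. The same 5 peaks had the highest signals in each replicate.

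**Figure D3:**
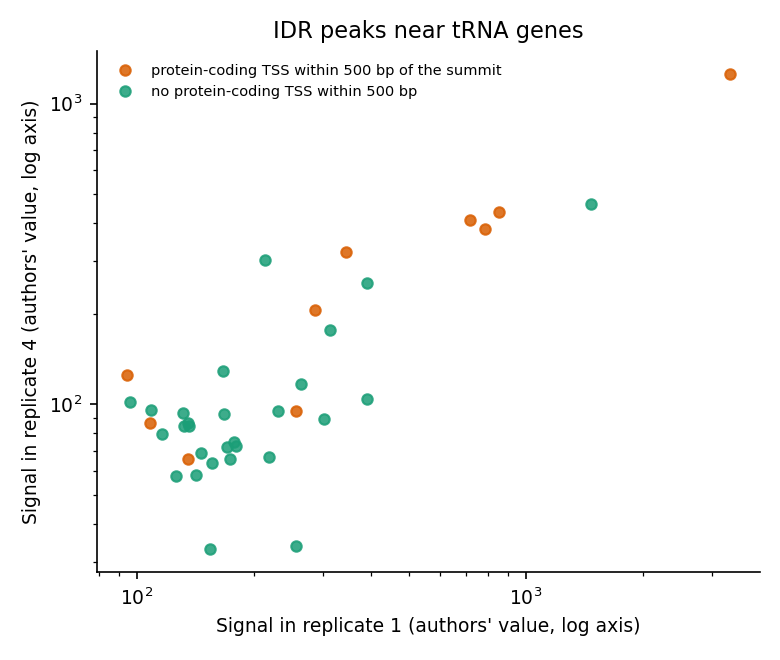
Signal in replicate 4 against signal in replicate 1 (log axes, the authors' values) for the 38 IDR peaks near tRNA genes that both replicates matched, coloured by whether a protein-coding TSS lay within 500 bp of the summit. The Tyr-GTA-1-8 peak stands apart at the top right with 3333.8 and 1250.6.

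Genes beside a protein-coding TSS had IDR summits more often, as such positions do at large. Of the 33 tRNA genes with a protein-coding TSS within 500 bp, 11 (33.3%, 18.0 to 51.8) had an IDR summit, where 18.4% of intervals of that kind had one. Of the 257 without, 43 (16.7%, 12.4 to 21.9) did, where 6.89% of such intervals did. The ratio to background was 1.81 with and 2.43 without. In the pooled list the shares came together: 20 of 33 genes with a TSS (60.6%) against a background of 31.4%, and 157 of 257 without (61.1%) against 18.3%. Farther from protein-coding genes the pooled share did not drop away, with 38 of 59 genes (64.4%) more than 10000 bp from the nearest such TSS. No share of intervals was counted at that distance, so this value has no background beside it.

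The strongest site near any tRNA gene was at Tyr-GTA-1-8, a tRNA-Tyr gene inside both CG8036 and pink (p). The signal was 3333.8 in replicate 1 and 1250.6 in replicate 4, and 4569.1 in the pooled and IDR lists, rank 163 of 11045. Its summit, the first window printed above, lay 195 bp upstream of the tRNA gene and 249 bp from a TSS of CG8036. The other tRNA-Tyr genes of that cluster, Tyr-GTA-1-6 and Tyr-GTA-1-7, shared a peak of 212, with 156 in replicate 1 and 63.8 in replicate 4. A strong and a weak site thus stood at 1 cluster, whose genes span 1059 bp, and both were called in both replicates.

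Further genes with a protein-coding TSS close by had lower values. Leu-TAA-2-1 had 851 in replicate 1 and 437 in replicate 4 (1291.4 in the IDR list), with the summit 194 bp upstream. The protein-coding TSS nearest to that summit was that of CG13605, 381 bp away, while the one nearest to the tRNA gene was that of Root, 239 bp to its other side. His-GTG-1-3 had 716 and 409 in replicates 1 and 4 (IDR 1123.5), 120 bp from a TSS of CG8490. At Phe-GAA-1-2 the signals were 345 and 320 (IDR 671), and the summit lay 46 bp from a TSS of RpL17, a ribosomal protein gene, against 187 bp from the tRNA gene. Asp-GTC-1-5 and Asp-GTC-1-4 shared a peak of 286 in replicate 1 and 206 in replicate 4 (IDR 484), 82 bp from a TSS of the axon guidance gene Sema1a. Asp-GTC-1-4 lies 524 bp from that TSS and so counts among the genes without one. Ile-AAT-1-8 (IDR 497), Pro-CGG-2-1 (344), Ala-AGC-2-5 (234), Thr-AGT-1-4 (215) and Ile-AAT-1-3 (193) complete the 11 genes, together with Tyr-GTA-1-6.

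Of the genes with no protein-coding TSS within 500 bp, Gln-TTG-2-1 was the highest. It had 1468.8 in replicate 1 and 464.0 in replicate 4 (IDR 1922.3, rank 867), with its summit 224 bp upstream and 8060 bp from any protein-coding TSS, inside CG12535. Val-CAC-2-5, inside the nicotinamidase gene Naam, followed with 784 in replicate 1 and 383 in replicate 4 (IDR 1158.4). Its summit was 395 bp downstream of the tRNA gene and 432 bp from a TSS of Naam. Arg-CCT-1-2 and Arg-CCT-1-3 shared a peak of 390 and 254 (IDR 631) that lay upstream of both, 205 and 246 bp away. Lys-TTT-2-1 had 214 in replicate 1 and 301 in replicate 4 (IDR 506), 451 bp upstream and 27607 bp from the nearest protein-coding TSS, that of the Hox gene Dfd. Its window was 50.72% unique. Ile-AAT-1-9 had 391 in replicate 1 and 104 in replicate 4 (IDR 517), and Gly-TCC-2-2 had 302 and 89.1 (IDR 389). Cys-GCA-1-1, Cys-GCA-1-2, Cys-GCA-1-3 and Lys-CTT-1-12, all inside the chitinase gene Cht7, shared 1 peak of 264 in replicate 1 and 117 in replicate 4 (IDR 385). Near the 500 bp limit, the outermost IDR summits counted were at 493 bp (Phe-GAA-1-6, signal 282) and 481 bp (Ala-AGC-1-1, 189), and the nearest left out were at 524 bp (Pro-AGG-1-1, 202) and 561 bp (Leu-CAA-2-2, 773).

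Identical genes did not carry identical calls. The 6 Val-CAC-2 copies lie at 4 loci, with a summit within 500 bp of 1 in the IDR list and of 3 in the pooled list. Beside Val-CAC-2-5 these were Val-CAC-2-3 with a pooled signal of 186, its summit 30 bp upstream, and Val-CAC-2-4 with 102. Val-CAC-2-1, Val-CAC-2-2 and Val-CAC-2-6 had none in any list. Of the 43 sequences present in several copies, 30 had a pooled summit at some copies and not at others, 8 had one at all copies and 5 at none. In the IDR list, 23 had one at some copies, 0 at all and 20 at none. Over all tRNA genes the shares were 61.0% pooled and 18.6% IDR. How many sequences would be split at those shares alone was not counted, and copies at 1 locus can share a peak. The 13 identical Gly-GCC-1 genes at 10 loci had 0 pooled summits, which allows a share of up to 23.1%, and 1 copy had a summit in replicate 4 (Gly-GCC-1-9, signal 244). All 9 Glu-CTC-3 copies, at 2 loci, had pooled summits, between 57.4 and 97.1, and none had an IDR summit.

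Isoacceptor families differed in their shares, on small numbers of genes that often share a locus. The pooled share was highest for tRNA-Ile with 10 of 11 genes (90.9%), tRNA-Glu with 17 of 19 (89.5%) and tRNA-Ala with 14 of 17 (82.4%). It was lowest for the single selenocysteine tRNA gene, which had no summit in any list, for tRNA-Trp with 1 of 8 genes, for elongator tRNA-Met with 1 of 6 and for tRNA-Gly with 6 of 20. In the IDR list tRNA-Tyr came first with 5 of 10 genes (50%), all at 2 loci, then tRNA-Cys with 3 of 7 at 1 peak and tRNA-Ala with 7 of 17 (41.2%). tRNA-Asn had 7 of 10 genes in the pooled list and 0 in the IDR list. The 6 initiator tRNA-Met genes, which supply the first residue of every protein, had 0 IDR and 3 pooled summits: 1 peak of 126 shared by iMet-CAT-1-1 and iMet-CAT-1-2, and 1 of 52.5 at iMet-CAT-1-4.

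**Figure D4:**
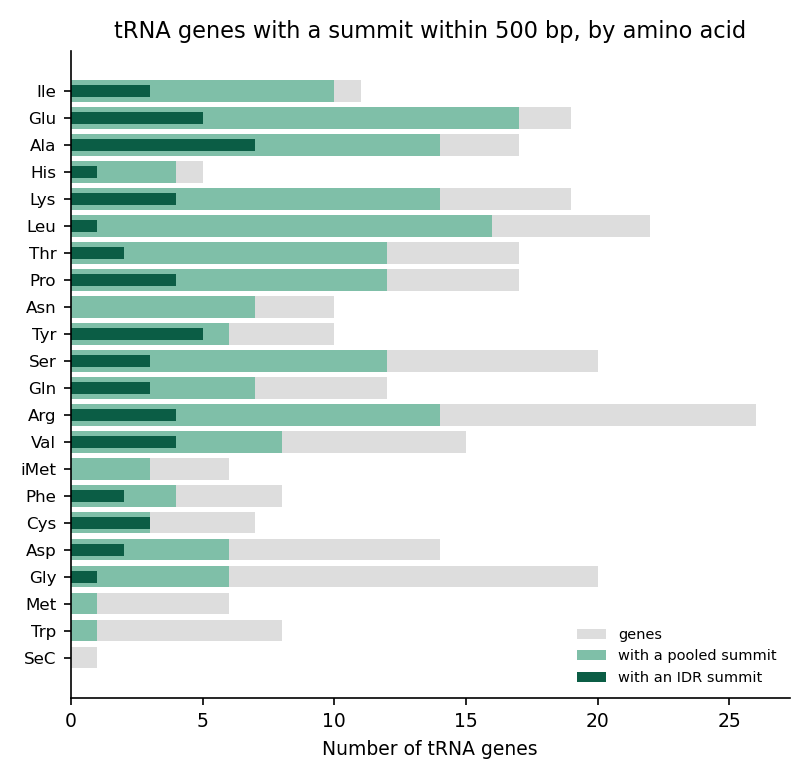
Number of tRNA genes by amino acid (grey bars), with those that had a pooled summit within 500 bp (light green) and an IDR summit (dark green), in order of pooled share from top to bottom. tRNA-Ile and tRNA-Glu lead with 10 of 11 and 17 of 19 genes, and tRNA-Trp has 1 of 8.

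Grouped genes had a pooled summit more often, gene by gene, than genes alone at their locus. Genes no more than 5000 bp apart formed 144 loci, of which 32 (22.2%) had an IDR summit near a member and 80 (55.6%) a pooled one. Of 76 tRNA genes alone at their locus, 10 (13.2%) had an IDR summit and 30 (39.5%) a pooled one, the same number as in replicate 1 and in replicate 4. At the 58 loci of 2 to 4 genes, 86 of 142 genes (60.6%) had a pooled summit, and at the 10 loci of 5 or more genes 61 of 72 (84.7%) did. The corresponding IDR shares were 20.4% and 20.8% of genes. They did not rise steadily with size, with 28.6% of genes at loci of 3 and 8.33% at loci of 4. Loci with more genes also span more bases, and no background was counted by locus size. Crowded genes share summits, and the part of this in the shares was not tested.

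The largest clusters had weak peaks. The 11 genes at chr3R:17617761-17631750 (Val-CAC-1-1, Pro-TGG-1-1 to Pro-TGG-1-3 and copies of tRNA-Ala, tRNA-Thr and tRNA-Val) had 3 IDR and 8 pooled peaks, the highest at 248. One of them, 36 bp downstream of Pro-TGG-1-2 with a signal of 126 in replicate 1 and 57.7 in replicate 4, is described with the motifs. The 11 genes at chr2R:6161535-6171759, copies of tRNA-Arg, tRNA-Asn, tRNA-Lys and tRNA-Ile, had 0 IDR and 5 pooled peaks of at most 96.8. Of the clusters of 7 genes, that at chr2R:19725620-19728958, with initiator tRNA-Met and tRNA-Glu genes, had 7 pooled peaks and, with the first cluster, the most IDR peaks of any locus, 3. Its highest, 373 beside Glu-TTC-1-5, was matched in replicate 1 (258) and not in replicate 4. The interval of that peak overlaps that of the IDR peak 129 bp downstream of Glu-TTC-1-5. Whether these calls are separate sites was not tested. The cluster inside ATP8A had 1 IDR peak of 193, and the one on the X at chrX:14014814-14017284 had 1 pooled peak of 111 and no IDR peak. By arm, the pooled share was 67.1% on 3R, 66.7% on 3L, 66.3% on 2R, 46.3% on 2L and 33.3% on X. The X value rests on 8 of 24 genes, and the lists of replicates 1 and 4 gave 11 and 12 of these 24. No share of intervals was counted by arm, so the arm values have no background beside them.

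Pooled summits gathered around the tRNA gene, on both sides. Within 500 bp of the annotated 5′ ends there were 24.5 pooled summit-gene pairs per 100 bp, against 10.6 at 2 to 5 kb, 2.32 times as many. The ratio was 2.17 in replicate 1 and 2.51 in replicate 4, and 1.7 in the IDR list, where 5.6 pairs per 100 bp stood against 3.3. On the other measure, the share of genes against all intervals of the arms, the ratio was 3.07 in the pooled list and 2.25 in the IDR list. How much of those ratios belongs to the wider neighbourhood of tRNA genes was not tested.

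**Figure D5:**
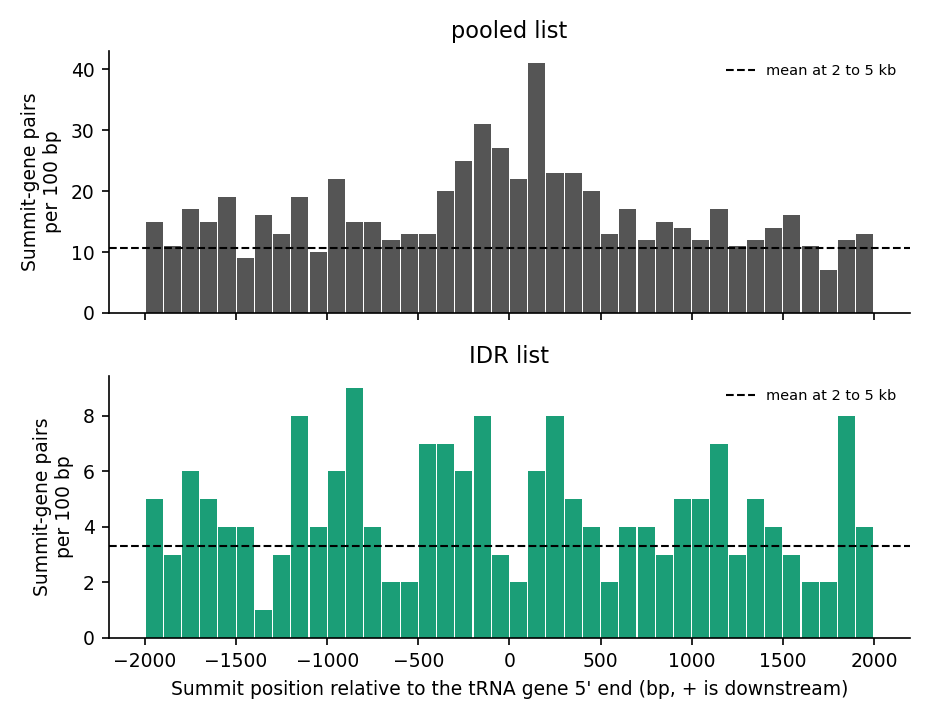
Summit-gene pairs per 100-bp bin around the 5′ end of tRNA genes (bp, positive downstream), for the pooled list above and the IDR list below, with the mean density at 2 to 5 kb as a dashed line. Pooled summits gather within 500 bp on both sides, at 24.5 pairs per 100 bp against 10.6, and IDR summits do so less plainly.

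The other products of Pol III did not share one pattern. Gene classes of the annotation are given first, for scale, and are not limited to Pol III products. Measured from 5′ ends, 59.0% of tRNA genes had a pooled summit within 500 bp, 32.8% of protein-coding genes, 31.2% of snRNA genes, 13.4% of snoRNA genes and 0% of 99 rRNA genes, a count of 0 that allows up to 3.03%. Of the 96 genes for 5S rRNA, the Pol III transcript of the large ribosomal subunit, 1 had a pooled summit within 500 bp of the gene body: 5SrRNA:CR33452, 457 bp from the same peak of 229 that lies beside Glu-CTC-2-2. The 5S genes are rRNA genes in a tandem repeat, so the limit of 3.03% does not rest on independent genes. Unique placement of reads in that repeat was not tested. The spliceosomal U6 genes snRNA:U6:96Ab and snRNA:U6:96Ac shared an IDR peak of 263, with 187 in replicate 1 and 73.1 in replicate 4, and snRNA:U6:96Aa had none. The RNase MRP RNA gene had a pooled summit of 110 at 18 bp. The genes for RNase P RNA and U6atac had none in any list, and of the 2 genes for 7SL RNA, the RNA of the signal recognition particle, 1 had a summit in replicate 1 alone.

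Protein-coding genes of tRNA synthesis and use included several with strong promoter peaks. Across all protein-coding genes, 24.6% had an IDR summit no farther than 500 bp from a TSS, and 35% a pooled one. Of 17 Pol III subunit genes, 8 (47.1%) had an IDR summit and the same 47.1% a pooled one. Polr3E, a subunit particular to Pol III, led with 2447.7 in replicate 1 and 1032.9 in replicate 4, and Polr2H, shared by all nuclear polymerases, had 1515.2 and 524. Next in the IDR list were Polr1D (394 and 176) and Polr3F (327 and 195). Polr2F, outside the naming rule, had 526 and 223 with no pooled or IDR summit in reach. The lists have such gaps: of the 5000 strongest peaks, 99 in replicate 1 and 195 in replicate 4 had no pooled summit within 100 bp, so a missing entry in 1 list does not show that a site is absent. Among 15 genes for TFIIIB, TFIIIC and regulators of Pol III, 5 (33.3%) had an IDR summit and 46.7% a pooled one. The highest in the IDR list was CG7099 (4638.6), listed with TFIIIC, with 3459.8 in replicate 1 and 1184.5 in replicate 4. The TFIIIB subunit genes Bdp1 (3146.2 and 1209.7) and Brf (2732.7 and 958) and the 7SK capping enzyme gene bin3 (2881.6 and 1108.2) followed, and in replicate 4 Bdp1 stood above CG7099.

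Aminoacyl-tRNA synthetases, which charge tRNAs, had an IDR summit in 14 of 35 genes (40%) and a pooled one in 42.9%. IleRS had 2654.9 in replicate 1 and 915 in replicate 4, SerRS 2210.7 and 835, GluProRS 1942.5 and 713, and ThrRS 1653 and 603. Of 29 genes of tRNA processing and modification, 10 (34.5%) had an IDR summit and 41.4% a pooled one. The Elongator genes Elp5 (3806.3 and 1436.7) and Elp6 (2982.8 and 1375.3), which act on wobble uridines, were the highest, and Trmt6, for a subunit of the methyltransferase that acts on an adenosine of the T loop, had 1804.1 and 670. Elp4 had 1110.4 in replicate 1 and no summit within reach in replicate 4. The median IDR signal of the genes with a summit was 437 for the Pol III subunits, 3976.2 for the factors and regulators, 984 for the synthetases and 1032.8 for processing and modification, against 804 for all 3432 protein-coding genes with one. The Pol III subunits were thus below the protein-coding median, and the value for the factors rests on 5 genes.

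The sequence under the summits was searched within 50 bp, on both strands, for 13 motifs. CP2 proteins are known from mammals to bind paired half-sites, and such pairs occurred in 5 of 40 IDR windows near tRNA genes (12.5%), against 4.84% of all IDR windows, and in 10% of 160 pooled windows near tRNA genes, against 6.17% of all pooled windows. They were also present inside 109 of 290 tRNA genes (37.6%, sense strand), so a pair near a summit need not lie outside the gene. The Grainyhead site ACCGGTT was in 0 of 40 IDR windows near tRNA genes, against 0.398% of all. The B box core GTTCGANNC was in 160 of 290 tRNA genes (55.2%), in 13 of 160 pooled windows near tRNA genes (8.12%) against 0.583% of all pooled windows, and in 1 of the 40 IDR windows (2.5%) against 0.57% of all IDR windows. The A box core GCNNAGTNG was in 104 tRNA genes (35.9%). It was in 6 of the 160 pooled windows near tRNA genes (3.75%) against 2.47% of all pooled windows, and in 0 of the 40 IDR windows against 2.08% of all IDR windows. TATAAA was in 22.5% against 28.5% of all IDR windows, and GAGAG in 10% against 6.9%. Windows near tRNA genes were also richer in G and C, with a median of 33.7% against 28.7% for all IDR windows. These windows were chosen near tRNA genes, and 80 of the 160 pooled summits lay within 100 bp of one. A window can thus hold part of a tRNA gene with its boxes. No share was counted without such windows, so the B box, A box and G and C differences may only reflect that choice. A match is a description of the letters and not a shown binding site.

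The Pro-TGG-1-2 window of the largest cluster is printed because it shows paired half-sites that belong to a tRNA gene: the window opens with the 3′ end of Pro-TGG-1-2, and all but the last base of the pair lies inside that gene, not at the summit. It covers chr3R:17620018-17620118, plus strand, with the pair in capitals:
Pro-TGG-1-2 summit: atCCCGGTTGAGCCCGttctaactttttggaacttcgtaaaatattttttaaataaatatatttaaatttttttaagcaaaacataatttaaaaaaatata
Its IDR signal was 209, rank 10147, and most of the window is A and T. Another pair, in the summit window of the Phe-GAA-1-2 peak (IDR 671), lies outside the tRNA gene. How many of the IDR windows with a pair have it inside a tRNA gene was not counted.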

How the data were processed

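Peaks were called by the authors per replicate and on the pooled replicates, each with a control alignment as further input, and the IDR list was derived from them, per the deposited listings, all on dm6. The aligner, the caller, the IDR threshold and how reads with several matches were placed are not given in the sources used here. The deposited signal of each peak was used for ranks, since the deposited −log10 q-value was at its ceiling for most strong peaks. Read depth is unknown. Gene models were those of Ensembl release 115 (BDGP 6.54), and sequence was RefSeq release 6. Summits were assigned to genes in Python 3.11.15 with numpy 2.4.6, pandas 2.3.3 and scipy 1.17.1. The background counts every possible 73-bp interval. Peaks of replicates were matched within 100 bp. Named were up to 12 tRNA genes with and 12 without a nearby protein-coding TSS by highest IDR signal, the clusters with most genes or IDR peaks, initiator and selenocysteine tRNA genes, the extreme amino acids and up to 4 members per list; other names were chosen after their values were seen. The members, lists and motifs were chosen with earlier results of these data known. Symbols with no matching gene were dropped, 1 each for other Pol III transcripts, Pol III subunits and factors, 6 synthetases and 11 processing genes. The functions were tested on planted summits.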

Additional observations from a re-analysis of the deposited data

How the results depend on the processing

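No paired analysis was possible because the series has 1 group. Of 53 values recomputed under 11 alternatives, 34 stayed within 1.5 times the reported count, or within the interval of the reported share or median, and 19 did not. With a 250 bp window 32 tRNA genes had an IDR summit, 7 of them with and 25 without a protein-coding TSS nearby. With 1000 bp there were 85, 73 of them without. All pooled peaks gave 177 genes (20 with, 157 without), 80 loci and a median highest signal of 123. The 5522 strongest IDR peaks gave 13 genes (6 with, 7 without), 11 loci, a median of 631 and 27.3% of peaks nearer to a protein-coding TSS. Taking a TSS within 250 bp or 1000 bp as nearby put 5 and 21 of the 54 genes in that class. With the 11045 strongest peaks of either replicate alone, the counts ran from 43 to 66 genes, 9 to 14 with and 34 to 52 without a TSS, and 26 to 39 loci. The median ran from 87.9 to 218, on scales that differ between replicates. The share nearer to a protein-coding TSS ran from 12.1% to 12.8% and the upstream share from 53.2% to 54.5%. Distances from the 5′ end and other cluster gaps moved no value beyond these limits. The window and the number of peaks set the counts, so they describe these settings. The 2 replicates, unknown depth, repeated sequence and shared peaks limit every share.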

Other observations

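Trp-CCA-2-2 and Gly-GCC-1-9, neighbours on the same arm, had a summit with a signal of 244 in replicate 4 and none in replicate 1 or in the pooled list. Of the 16 tRNA genes with an intron, 5 had an IDR summit and 9 a pooled one, beside 18.6% and 61.0% of all tRNA genes.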
